A study of Arabidopsis thaliana with 16 samples.

Results

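Untreated *fer* seedlings were compared with untreated WT seedlings in the 8 control libraries of the series, 4 of each genotype, out of 16 libraries in all. WT was the accession Col-0, and *fer* was *fer-4*, 1 T-DNA insertion line of the same accession, so that no second allele and no complemented line stood beside it. Seedlings of both genotypes were 10 days old, had grown on 1/2MS plates and had been moved to 1/2MS liquid for 2 h, a step that both groups share. Arabidopside A, the compound given to the other 8 libraries, was not given to these. RNA was sequenced from the 3′ end of transcripts (QuantSeq, about 1 fragment a transcript), which makes a count a measure of transcript number and not of length. Of the 32833 genes in the table, 17001 passed the expression filter and were tested. ER body, glucosinolate and JAZ genes are left aside here, and the rest of the transcriptome is described through 37 lists of growth, cell wall, photosynthesis, hormone, stress and nutrient genes that hold 1253 genes, 904 of them tested.

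FERONIA (FER) is a receptor kinase of the CrRLK1L family, whose outer part carries malectin-like domains that lie against the cell wall. It binds small secreted peptides of the RALF family together with the membrane-anchored protein LLG1, and is known for roles in cell expansion, root hair growth, fertilization and the sensing of wall damage. It also acts as a scaffold for immune receptors at the plasma membrane, and mutants lacking it are known for altered responses to several hormones.

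*FER* (AT3G51550) had 128, 111, 132 and 102 CPM (counts scaled to 1 common library total, with TMM factors that set the bulk of genes equal between libraries) in WT replicates 1 to 4. In *fer* replicates 1 to 4 it had 1.38, 1.06, 0.679 and 3.1 CPM. All 4 *fer* libraries therefore lay far under all 4 WT libraries, as the labels give them. Totals ranged from 2843653 to 5985875 counts a library. On the first principal component, which held 69.9% of the variance among these 8 libraries, WT lay between -58.72 and -52.4, and *fer* replicates 1 and 2 at 20.08 and 25.49. *fer* replicates 3 and 4 stood farther out, at 99.85 and 80.54. Results are therefore given by library, and the counts of the lists without *fer* replicates 3 and 4 stand beside them or together after the last list. The labels do not say whether libraries of a genotype came from separate plates, so p-values measure the spread between these libraries, which may be technical. Root markers summed to between 143.7 and 178.3 CPM in WT and between 186 and 215.4 in *fer* (15 listed, 11 tested, 3 higher and 0 lower, or 27.3% called beside 27.2% over all genes). Markers of the shoot and the stomatal lineage summed to between 279.5 and 307.5 CPM in WT and between 129.6 and 238.7 in *fer* (12 listed, 10 tested, 0 higher and 5 lower). No pollen marker of 5 passed the filter, and of 13 seed markers 1 did, the seed storage protein gene *CRA1*, which was lower in *fer*.

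The genes beside *FER* were examined because one of them, *DGAT2* (AT3G51520, annotated as a diacylglycerol acyltransferase, an enzyme class that makes storage oil), was among the largest falls. *DGAT2* had 103, 85, 104 and 119 counts in WT replicates 1 to 4, and 2, 2, 0 and 5 in *fer* (log2 fold change -5.11, with a standard error, SE, of 0.44, edgeR adjusted p = 1.9e-05, and -5.91 without *fer* replicate 4). Its neighbour towards *FER*, AT3G51530, had 32, 31, 40 and 39 counts in WT and 0, 1, 0 and 0 in *fer*. The 2 genes overlap by 67 bp on opposite strands. AT3G51540, between AT3G51530 and *FER*, was barely counted, with 8 counts over the WT libraries and 0 over the *fer* libraries, too few to test. The next gene out, AT3G51510, had 640 counts over WT and 564 over *fer* (log2 fold change 0.15, edgeR adjusted p = 0.50), and AT3G51580, the nearest tested gene on the other side of *FER*, had 307 and 264 (log2 fold change 0.13, edgeR adjusted p = 0.74). So *FER* and its tested neighbours on 1 side, up to *DGAT2*, were all near 0 in *fer*, and genes on both sides of that stretch were not. AT3G51530 was named after its values were seen. Of the 20 tested genes nearest to *FER*, 9 were called, 5 higher and 4 lower, beside 27.2% called, 15.7% higher and 11.5% lower over all genes. What the genes of this stretch share was not tested. All *fer* libraries came from 1 line. In the results below, loss of *FER* and loss of *DGAT2* and AT3G51530 cannot be told apart.

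**Figure D1:**
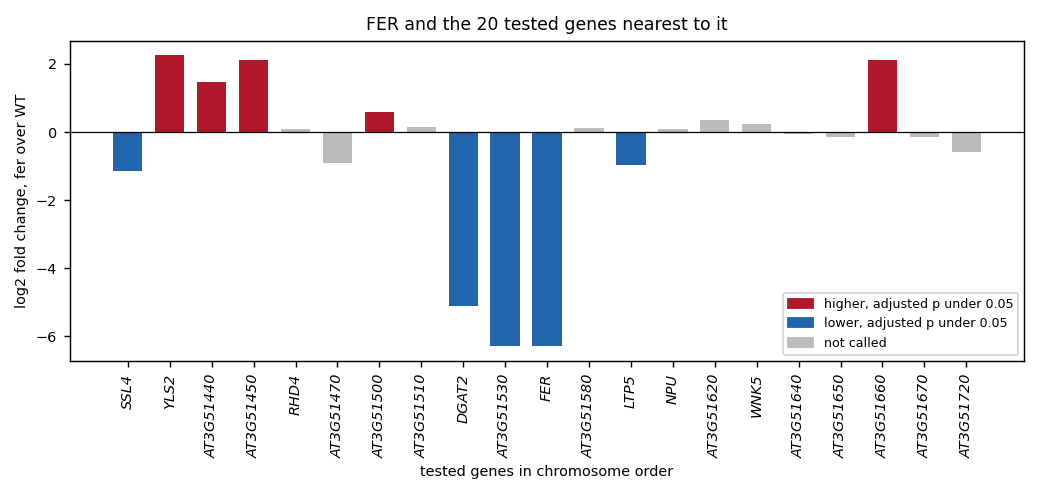
The log2 fold change of *fer* over WT (vertical axis) is drawn for *FER* and for the 20 tested genes nearest to it, in chromosome order, red and blue for genes that passed an adjusted p of 0.05 and grey for the others. *DGAT2* (-5.11), AT3G51530 (-6.30) and *FER* (-6.28) stand side by side, and the genes next to them lie between 0.13 and 0.15.

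Over all genes, 4620 of 17001 differed between the genotypes (27.2%, edgeR, adjusted p under 0.05), 2661 higher in *fer* (15.7%) and 1959 lower (11.5%). With *fer* replicates 3 and 4 left out, 3490 genes differed. The middle of the distribution was near 0, with a median log2 fold change of -0.03 and quartiles of -0.36 and 0.38, and 1751 of the higher genes against 667 of the lower ones had changed by at least 1 on the log2 scale. Lists are read below against these shares and this median. A count of 3 or fewer genes in a list often moved by 1 or 2 genes when 1 library was left out. Members named beyond those that the size of change or the level picked were chosen after their values were seen.

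**Figure D2:**
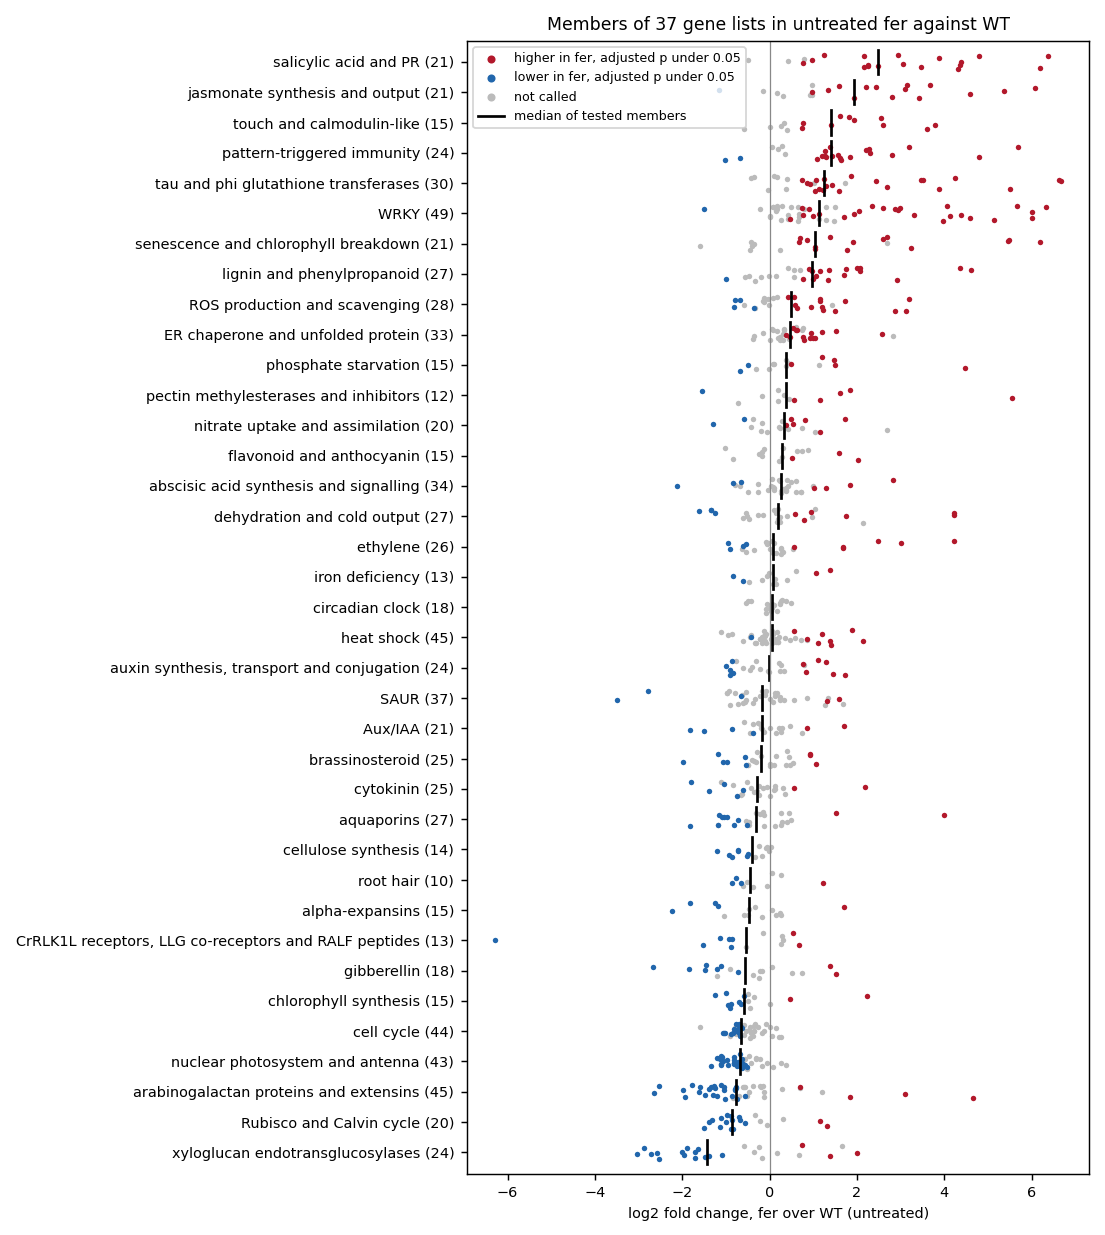
Each point is 1 tested member of the list named on the vertical axis (number tested in brackets), placed by its log2 fold change in *fer* over WT, red where higher and blue where lower at an adjusted p under 0.05, with a black bar at the list's median. Medians run from -1.44 for the xyloglucan endotransglucosylases to 2.48 for the salicylic acid list.

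Among the wall lists, lower members were most frequent in the XTHs (14 of 24) and the arabinogalactan proteins and extensins (25 of 45), beside 11.5% over all genes, and least frequent in the pectin list (1 of 12). The xyloglucan endotransglucosylase/hydrolases (XTHs) cut and rejoin the xyloglucan chains that lie between cellulose microfibrils. Of 24 tested members out of 33, 14 were lower and 3 higher in *fer*, with a median log2 fold change of -1.44 against -0.03 over all genes. *XTH7* (AT4G37800), the most abundant of them, had 684, 652, 729 and 802 CPM in WT replicates 1 to 4 and 153, 170, 67 and 49.9 in *fer* (log2 fold change -2.70, SE 0.39, edgeR adjusted p = 0.0019). *XTH4* (AT2G06850) fell from between 310 and 367 CPM to between 23.6 and 71.0 (log2 fold change -2.87, SE 0.30, edgeR adjusted p = 0.00025). In both genes the *fer* libraries lay under every WT library, and replicates 3 and 4 were the lowest. *XTH33*, *XTH15*, *XTH17* and *XTH9* fell by 3.04, 2.57, 2.52 and 1.95 on the log2 scale. Not every XTH went down: *XTH18* (AT4G30280) rose from between 27.2 and 42.4 CPM to 104, 58.2, 256 and 155 (log2 fold change 2.01, SE 0.42, edgeR adjusted p = 0.0097). Leaving out any 1 library gave between 11 and 14 lower XTHs and between 1 and 5 higher ones, 1 without WT replicate 1 or 2 or *fer* replicate 3 or 4, and 5 without *fer* replicate 2.

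Expansins loosen the wall without cutting it. Of 15 tested alpha-expansin genes, 4 were lower and 1 was higher (33.3% called, beside 27.2% over all genes). *EXPA1* (AT1G69530), the most abundant, had between 222 and 261 CPM in WT and between 250 and 302 in *fer* (log2 fold change 0.14, edgeR adjusted p = 0.41). *EXPA11* (AT1G20190) fell from between 51.8 and 66.7 CPM to 21.8, 19.7, 4.30 and 3.72, and *EXPA10* (AT1G26770) rose from between 10.3 and 18.1 to between 31.3 and 53.6 CPM (log2 fold change 1.70, SE 0.22, edgeR adjusted p = 0.00030). The expansin-like gene *EXLA2* (AT4G38400) was among the 10 largest falls, from 15, 10.7, 12.3 and 14.9 CPM in WT to 2.95, 1.41, 0.452 and 0.620 in *fer*. Its log2 fold change was -3.18, and -4.05 without *fer* replicate 1. The other 10 tested alpha-expansins were not called in either direction.

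Cellulose is laid down by synthase complexes, in which CESA1, CESA3 and CESA6 act in growing walls and CESA4, CESA7 and CESA8 in thickened ones. Of 14 tested genes, 7 were lower and 0 higher in *fer* (median log2 fold change -0.41). *CESA1* had 293, 270, 315 and 272 CPM in WT and 185, 168, 118 and 137 in *fer* (log2 fold change -0.92, SE 0.15, edgeR adjusted p = 0.0014). *CEV1*, which encodes CESA3, had between 509 and 544 CPM in WT and between 277 and 366 in *fer* (log2 fold change -0.72, SE 0.12, edgeR adjusted p = 0.0015). *COB* (AT5G60920), whose anchored product orients cellulose, fell most in the list, from between 246 and 278 CPM to 173, 118, 93.0 and 80.6 (log2 fold change -1.20, SE 0.21, edgeR adjusted p = 0.0019). In *CESA1*, *CEV1* and *COB* the groups did not overlap. *CESA6* (AT5G64740), the most abundant, had between 870 and 1114 CPM in WT and 737, 910, 507 and 613 in *fer* (log2 fold change -0.52, SE 0.17, edgeR adjusted p = 0.043). Its *fer* replicate 2 lay inside the WT range. The call for *CESA6* was lost without any 1 WT library and without *fer* replicate 3 or 4.

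Arabinogalactan proteins and extensins are glycoproteins of the wall, the second of which form cross-linked networks. Of 45 tested members out of 59, 25 were lower and 4 were higher (median log2 fold change -0.77). *FLA13* (AT5G44130), a fasciclin-like member, fell from 1422, 974, 1142 and 1480 CPM to 328, 381, 65.2 and 102 (log2 fold change -2.52, SE 0.58, edgeR adjusted p = 0.016). *EXT3* and *EXT4* went the other way. *EXT3* had between 554 and 713 CPM in WT and 1132, 1160, 4050 and 2371 in *fer* (log2 fold change 1.83, SE 0.41, edgeR adjusted p = 0.014), and *EXT4* had between 250 and 281 in WT and 1104, 905, 3990 and 3015 in *fer* (log2 fold change 3.09, SE 0.50, edgeR adjusted p = 0.0039). *AGP5* (AT1G35230) had between 3.16 and 5 CPM in WT, near 21 in *fer* replicates 1 and 2, at 20.3 and 21.2, and 185 and 189 in replicates 3 and 4. Because the 2 extensins are so abundant, the list's summed CPM in *fer* replicate 3 was 1.16 times the WT mean although most of its members were lower.

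Among pectin methylesterases and their inhibitors, 5 of 12 tested genes were higher and 1 lower, and the higher ones numbered 2, 2, 2 and 1 without WT replicates 1, 2, 3 and 4, and 3 without *fer* replicate 3 or 4. *PME5* (AT5G47500) fell from between 7.94 and 16.2 CPM to between 2.12 and 5.51 (log2 fold change -1.55, SE 0.33, edgeR adjusted p = 0.0058). *PME3*, the most abundant, had between 642 and 710 CPM in WT and between 726 and 1055 in *fer* (log2 fold change 0.32, edgeR adjusted p = 0.10).

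Of 10 tested root hair genes, 3 were lower and 1 higher, and 0 were lower without WT replicate 2, 3 or 4 or without *fer* replicate 3 or 4.

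FER's own family and partners moved in part. *THE1* (THESEUS1), a relative of FER that senses the wall, had 23.9, 22.5, 17.5 and 15.1 CPM in WT and 13.2, 11.3, 9.95 and 8.37 in *fer* (log2 fold change -0.87, SE 0.21, edgeR adjusted p = 0.011). *HERK2*, another relative, had between 13.1 and 18.5 CPM in WT and between 6.56 and 11.4 in *fer* (log2 fold change -0.87, SE 0.22, edgeR adjusted p = 0.014), and no longer passed with *fer* replicates 3 and 4 left out (adjusted p = 0.076). *HERK1* had a log2 fold change of 0.26 (edgeR adjusted p = 0.24). The co-receptor gene *LLG1* had between 76.7 and 89.97 CPM in WT and between 89.5 and 108 in *fer* (log2 fold change 0.27, edgeR adjusted p = 0.12). Of the ligands, *RALF23* fell from between 57.0 and 76.0 CPM to 38.7, 30.7, 13.6 and 12.7 (log2 fold change -1.52, SE 0.34, edgeR adjusted p = 0.010). *RALF1* (AT1G02900) rose from between 15.7 and 22.5 CPM to between 25.4 and 36.9 (log2 fold change 0.66, SE 0.18, edgeR adjusted p = 0.016). The call for *RALF1* was lost without WT replicate 2 or *fer* replicate 4, where adjusted p was 0.052 in both fits. In the whole list, 13 of 45 genes were tested, 6 of them lower (with *FER*) and 2 higher.

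Genes of DNA replication and cell division leaned down. Of 44 tested cell cycle genes, 16 were lower and 0 higher, with a median log2 fold change of -0.65. With *fer* replicates 3 and 4 left out 7 were lower. The count was 6 without WT replicate 1, 5 without WT replicate 2, 6 without WT replicate 3, 9 without *fer* replicate 3 and 8 without *fer* replicate 4. *PCNA2* (AT2G29570), the sliding clamp of replication and the most abundant of them, had between 74.8 and 79.9 CPM in WT and 53.5, 79.0, 33.3 and 41.6 in *fer* (log2 fold change -0.58, edgeR adjusted p = 0.070), so that *fer* replicate 2 lay inside the WT range. *CYCA3;2* (AT1G47210), an A-type cyclin gene, had between 15.7 and 21.5 CPM in WT and 14.9, 7.40, 5.43 and 6.51 in *fer* (log2 fold change -1.07, SE 0.29, edgeR adjusted p = 0.018). Without WT replicate 2, WT replicate 3 or *fer* replicate 4 the call for *CYCA3;2* was lost, with adjusted p of 0.060, 0.056 and 0.055, and with *fer* replicates 3 and 4 left out (0.070).

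Photosynthesis genes of the nucleus were at decreased levels. These genes encode the proteins that the chloroplast imports to build photosystems, their light-harvesting antennae and the carbon-fixing cycle. In the photosystem and antenna list, 29 of 43 tested genes were lower and 0 higher (median log2 fold change -0.67). *PSAG* (AT1G55670), a subunit of photosystem I, had 5693, 6086, 6283 and 5560 CPM in WT and 3370, 2760, 1805 and 2292 in *fer* (log2 fold change -1.21, SE 0.18, edgeR adjusted p = 0.00071). *CAB1* (AT1G29930), which encodes a chlorophyll a/b binding protein of the antenna, had between 5548 and 6667 CPM in WT and 3698, 3474, 1633 and 2547 in *fer* (log2 fold change -1.07, SE 0.22, edgeR adjusted p = 0.0052). In both genes every *fer* library was under every WT library, and *fer* replicate 3 was lowest. The number of lower genes in the list was 16 without WT replicate 2 and 19 without WT replicate 3. The annotation places other genes across *PSAG* and *CAB1* on the opposite strand, over 479 and 108 bp, and *CAB1* has near-identical copies, so their counts are uncertain to that extent.

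Rubisco and Calvin cycle genes followed, with 14 of 20 tested lower and 2 higher (median log2 fold change -0.85). *RBCS1A* (AT1G67090), the main gene for the small subunit of Rubisco, had 6781, 7782, 7446 and 5628 CPM in WT and 4454, 2818, 2142 and 3180 in *fer* (log2 fold change -1.13, SE 0.20, edgeR adjusted p = 0.0024). *RBCS3B* (AT5G38410) had between 4297 and 5030 CPM in WT and 2835, 1381, 1101 and 1349 in *fer* (log2 fold change -1.5, SE 0.27, edgeR adjusted p = 0.0032). Small subunit genes are close copies of each other, and reads may have been split between them. *RCA*, which encodes the activase that clears Rubisco's active site, had between 483 and 588 CPM in WT and between 155 and 305 in *fer* (log2 fold change -1.31, SE 0.19, edgeR adjusted p = 0.00060). The transketolase gene AT2G45290 rose, from between 15 and 21.5 CPM to between 27.1 and 65.4 (log2 fold change 1.31, SE 0.29, edgeR adjusted p = 0.0076).

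In chlorophyll synthesis, 8 of 15 tested genes were lower and 2 higher, and 5 were lower without WT replicate 2. *PORB* (AT4G27440), for the light-dependent step to chlorophyllide, fell from between 429 and 510 CPM to between 179 and 284 (log2 fold change -1.0, SE 0.15, edgeR adjusted p = 0.00082). *CHLI2* (AT5G45930), for a subunit of magnesium chelatase, fell from between 19.8 and 27.7 to between 8.06 and 12 CPM (log2 fold change -1.26, SE 0.20, edgeR adjusted p = 0.0011). Shoot markers were lower in the same libraries (summed CPM 0.767, 0.808, 0.439 and 0.595 of the WT mean in *fer* replicates 1 to 4, beside 0.730, 0.656, 0.395 and 0.495 for the photosystem list). In whole seedlings, fewer cells of a type and less RNA per cell cannot be told apart. The part of shoot share in these values was not tested.

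Aquaporins, the water channels of plasma membrane and tonoplast, were lower in 9 of 27 tested genes and higher in 2. Between 6 and 12 were lower when 1 library was left out. The higher ones numbered 0 without any 1 WT library and without *fer* replicate 4. *DELTA-TIP* (AT3G16240), a tonoplast channel, had 1185, 1369, 1276 and 1475 CPM in WT and 507, 421, 307 and 275 in *fer* (log2 fold change -1.81, SE 0.19, edgeR adjusted p = 8.2e-05), and a gene overlaps it by 445 bp on the opposite strand. *TIP2* (AT3G26520), the most abundant, had 3108, 3046, 2952 and 3225 CPM in WT and 1815, 2263, 682 and 712 in *fer*. Its 4 *fer* values lay under all WT values, and the log2 fold change was -1.17 (edgeR adjusted p = 0.055). It passed in DESeq2 (adjusted p = 0.0053) and with *fer* replicates 3 and 4 left out (log2 fold change -0.59, edgeR adjusted p = 0.00029), and its edgeR adjusted p ranged from 0.014 to 0.105 with 1 library left out.

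**Figure D3:**
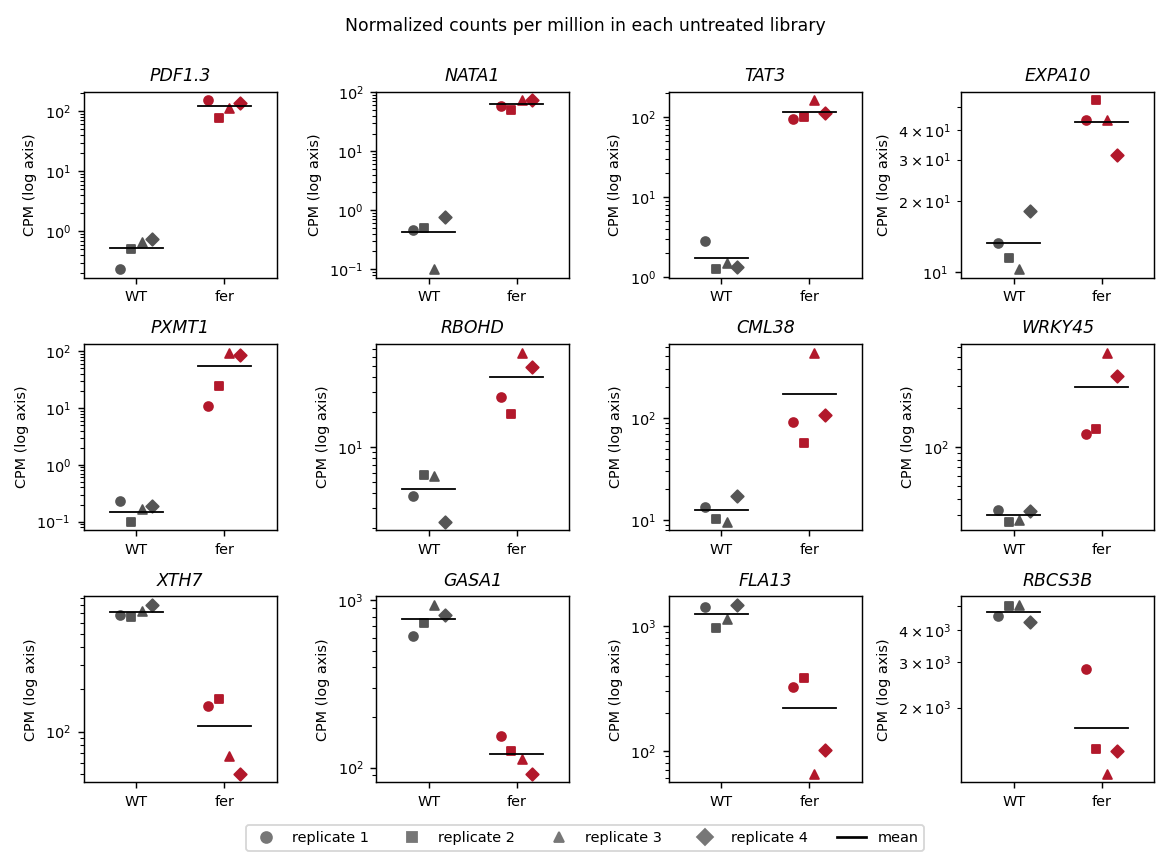
Normalized CPM (log axis, a scale of its own in each panel) of 12 genes are shown in the 4 WT (grey) and 4 *fer* (red) untreated libraries, with symbols for replicates 1 to 4 and a bar at the mean. Libraries with no count were drawn at 0.1. *PDF1.3*, *NATA1* and *TAT3* are far above WT in every *fer* library, whereas *PXMT1*, *RBOHD* and *WRKY45* are highest in *fer* replicates 3 and 4, where *XTH7* and *FLA13* are lowest.

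Among the growth hormone lists, gibberellin genes leaned down, whereas auxin, brassinosteroid and cytokinin genes had smaller median shifts. For auxin, 4 of 21 tested Aux/IAA repressor genes were lower and 2 higher (28.6% called, beside 27.2% over all genes). Of 37 tested SAUR genes, rapid targets of auxin, 3 were lower and 2 higher (13.5% called). The lower SAUR genes numbered 9 without *fer* replicate 1 and 5 without *fer* replicate 2, and the lower Aux/IAA genes 2 without WT replicate 2 or 3 or *fer* replicate 3. In auxin synthesis, transport and conjugation, 6 of 24 tested genes were higher and 5 lower (45.8% called). *IAA7* (AT3G23050), the most abundant Aux/IAA gene, fell from between 329 and 405 CPM to 260, 243, 137 and 174 (log2 fold change -0.86, SE 0.19, edgeR adjusted p = 0.0063). *AUX1* (AT2G38120), an auxin importer, fell from between 57.3 and 61.9 CPM to between 22.6 and 39.5 (log2 fold change -1.0, SE 0.17, edgeR adjusted p = 0.0016). *GH3.3* (AT2G23170), whose product joins amino acids to auxin, rose from 70.8, 43.5, 40.2 and 50.3 CPM to 153, 130, 139 and 135 (log2 fold change 1.45, SE 0.17, edgeR adjusted p = 0.00023). Its *fer* values hardly differed among themselves.

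Gibberellin genes showed 7 lower and 2 higher of 18 tested (median log2 fold change -0.55), beside 11.5% lower over all genes. Between 5 and 9 were lower when 1 library was left out. *GASA1* (AT1G75750), a small secreted cysteine-rich peptide gene induced by gibberellin, had 615, 729, 941 and 816 CPM in WT and 154, 126, 113 and 91.5 in *fer* (log2 fold change -2.68, SE 0.19, edgeR adjusted p = 4.1e-06). *GASA14* (AT5G14920) fell from between 827 and 905 to 320, 375, 130 and 163 CPM (log2 fold change -1.84, SE 0.31, edgeR adjusted p = 0.0033). Among brassinosteroid genes, 6 of 25 tested were lower and 3 higher (36.0% called, beside 27.2% over all genes, median log2 fold change -0.20). *BEE3* (AT1G73830), an early brassinosteroid-induced transcription factor gene, fell from between 34.7 and 52.2 CPM to between 6.33 and 17.9 (log2 fold change -1.98, SE 0.30, edgeR adjusted p = 0.0012). *IBH1* (AT2G43060), a repressor of cell elongation, rose from between 7.50 and 12.7 CPM to between 13.8 and 27.6 (log2 fold change 1.06, SE 0.24, edgeR adjusted p = 0.0075). Cytokinin genes were lower in 5 and higher in 2 of 25 tested, 28.0% beside 27.2% over all genes. The lower count was 3 without WT replicate 2, 1 without WT replicate 3 and 2 without WT replicate 4.

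For ethylene, 6 of 26 tested genes were higher and 4 lower (38.5% called, beside 27.2% over all genes). *ACS2* (AT1G01480), for an enzyme of ethylene synthesis, had between 2.08 and 4.00 CPM in WT, 7.47 and 4.58 in *fer* replicates 1 and 2, and 132 and 98.9 in replicates 3 and 4. Its call (log2 fold change 4.22, edgeR adjusted p = 0.034) was lost without any 1 WT library, without *fer* replicate 3 or 4, and with both of these left out. *ERF1*, a transcription factor gene downstream of ethylene and jasmonate, rose from between 0.999 and 3.98 CPM to between 6.49 and 15.5 (log2 fold change 2.48, SE 0.40, edgeR adjusted p = 0.0012). The lower ethylene genes numbered 2 without WT replicate 1, 2 or 3 and without *fer* replicate 4.

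Abscisic acid (ABA) synthesis and signalling genes stayed near the centre, with 4 higher and 3 lower of 34 tested (median log2 fold change 0.27). In the *CYP707A* family, which breaks ABA down, *CYP707A3* (AT5G45340) rose from between 2.5 and 4.16 CPM to between 7.87 and 17.2 (log2 fold change 1.85, SE 0.32, edgeR adjusted p = 0.0018). *CYP707A2* (AT2G29090) fell from between 9.74 and 14.4 to 4.52, 2.82, 0.452 and 2.17 CPM (log2 fold change -2.12, and -2.72 without *fer* replicate 1, edgeR adjusted p = 0.0039). The higher count of the list was 7 without *fer* replicate 2. Among dehydration and cold genes, 6 of 27 tested were higher and 4 lower. *LTI78* (AT5G52310, also called *RD29A*), a classic cold and drought marker, fell from between 262 and 370 CPM to 125, 155, 45.9 and 72.0 (log2 fold change -1.61, SE 0.34, edgeR adjusted p = 0.0095). *RHL41* (AT5G59820, also called *ZAT12*), a zinc finger gene of general stress, rose from between 3.25 and 4.45 CPM to 22.2, 19.0, 176 and 63.9 (log2 fold change 4.23, and 3.24 without *fer* replicate 3, edgeR adjusted p = 0.010). The higher genes of the list numbered 3 without any of the WT libraries or without *fer* replicate 4, and the lower ones numbered 7 without *fer* replicate 1.

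Defence and stress genes made up the lists with the highest medians. Jasmonate is a lipid-derived hormone of wounding and insect attack, made from chloroplast fatty acids by lipoxygenases, AOS, AOC and OPR3. Apart from the JAZ repressors, 14 of 21 tested genes of its synthesis and output were higher and 1 lower (median log2 fold change 1.94). *TAT3* (AT2G24850), a jasmonate-induced tyrosine aminotransferase gene, had 2.81, 1.25, 1.5 and 1.32 CPM in WT and 92.8, 98.4, 161 and 113 in *fer* (log2 fold change 6.08, SE 0.28, edgeR adjusted p = 1.7e-07). *LOX2*, for a chloroplast lipoxygenase, had 52.5, 72.2, 39.4 and 74.7 CPM in WT and 571, 739, 292 and 441 in *fer* (log2 fold change 3.1, SE 0.32, edgeR adjusted p = 0.00026). *VSP2*, a vegetative storage protein gene, had between 5.82 and 13.7 CPM in WT and 354, 286, 145 and 175 in *fer* (log2 fold change 4.59, SE 0.39, edgeR adjusted p = 0.00012). In these last genes *fer* replicates 3 and 4 were the lowest of the *fer* libraries, and the summed list followed, at 2.85, 2.64, 2.09 and 2.05 times the WT mean. *ST2A* (AT5G07010), annotated as a sulfotransferase, fell from between 715 and 987 to between 279 and 511 CPM (log2 fold change -1.17, SE 0.20, edgeR adjusted p = 0.0018).

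A pair of genes for plant defensins, small antifungal proteins and common markers of combined jasmonate and ethylene signalling, were among the 10 largest rises. *PDF1.2* (AT5G44420) had 0.234, 0.25, 0.831 and 0.189 CPM in WT and 53.5, 33.8, 52.5 and 54.6 in *fer* (log2 fold change 6.81, and 7.59 without WT replicate 3, SE 0.34, edgeR adjusted p = 2.9e-07). *PDF1.3* (AT2G26010) had between 0.234 and 0.756 CPM in WT and 152, 76.5, 113 and 137 in *fer* (log2 fold change 7.67, SE 0.32, edgeR adjusted p = 1.3e-07). Both genes have close copies. *NATA1* (AT2G39030), for an acetyltransferase of ornithine, a step towards the defence compound N-acetylornithine, rose from at most 0.756 CPM to 58.8, 50.8, 73.5 and 73.5 (log2 fold change 7.19, SE 0.37, edgeR adjusted p = 3.2e-07). In the defensin genes *fer* replicates 3 and 4 were not both above replicates 1 and 2, and in *NATA1* they were, by a small margin.

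Salicylic acid is the hormone of resistance to biotrophic pathogens. Its list had the highest median of all, 2.48, with 18 of 21 tested genes higher and 0 lower, and between 17 and 20 higher when 1 library was left out. *EDS16*, which encodes the synthesis enzyme ICS1, had 15.5, 13.2, 13.3 and 18.7 CPM in WT and 55.9, 56.4, 54.3 and 126 in *fer* (log2 fold change 2.26, SE 0.29, edgeR adjusted p = 0.00060). *PAD4*, a lipase-like regulator upstream of it, had between 3.49 and 3.78 CPM in WT and 9.44, 20.1, 23.8 and 13.6 in *fer* (log2 fold change 2.17, SE 0.30, edgeR adjusted p = 0.00049). *WRKY70* (AT3G56400) rose from between 15.3 and 19.0 CPM to 93.2, 89.5, 193 and 145 (log2 fold change 2.95, SE 0.25, edgeR adjusted p = 2.6e-05). *BGL2*, the glucanase gene also called *PR2*, had at most 0.756 CPM in WT and 18.9, 29.6, 12.2 and 23 in *fer* (edgeR adjusted p = 3.2e-05, log2 fold change 6.20, and 7.71 without WT replicate 4). AT4G10500, annotated as a 2-oxoglutarate and iron dependent oxygenase, had 2 counts over all WT libraries and 168 over all *fer* libraries, a ratio of 105 (exact interval for counting error 28.7 to 878 at 95%). Both WT counts were in replicate 2, and without it the fitted log2 fold change went from 6.38 to 8.62. Jasmonate and salicylic acid genes were thus both high in the same *fer* libraries.

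WRKY transcription factors bind the W box, a short promoter word with the core TTGAC. Of 49 tested WRKY genes, 25 were higher and 1 lower (median log2 fold change 1.13). Without *fer* replicates 3 and 4, 21 were higher and the median was 0.44. *WRKY62* (AT5G01900) had 0.469, 0.25, 0.998 and 0.567 CPM in WT and 59.8, 23.6, 64.7 and 55.8 in *fer* (log2 fold change 6.33, SE 0.43, edgeR adjusted p = 6.4e-06). *WRKY33*, a regulator of camalexin synthesis, had between 10.4 and 13.2 CPM in WT and 84.0, 73.3, 300 and 298 in *fer* (log2 fold change 4.06, SE 0.56, edgeR adjusted p = 0.0021). *WRKY45* (AT3G01970) rose from between 26.5 and 32.8 CPM to 127, 138, 541 and 358 (log2 fold change 3.30, SE 0.51, edgeR adjusted p = 0.0032).

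Promoters of 4 genes are shown because they carry words that signalling routes named above are known to read. Each is the 250 bases before the annotated start in TAIR10.1 (RefSeq), 5′ to 3′ on the gene's strand. Capitals mark 3 words on either strand: TTGAC (W box core), ACGTG (bound by bZIP and bHLH factors) and GCCGCC (GCC box, bound by ethylene response factors). The lines are *PDF1.2* (chr5:17907639-17907888, minus strand), *PDF1.3* (chr2:11087030-11087279, plus strand), *WRKY62* (chr5:352096-352345, minus strand) and *CAB1* (chr1:10477635-10477884, plus strand).
PDF1.2: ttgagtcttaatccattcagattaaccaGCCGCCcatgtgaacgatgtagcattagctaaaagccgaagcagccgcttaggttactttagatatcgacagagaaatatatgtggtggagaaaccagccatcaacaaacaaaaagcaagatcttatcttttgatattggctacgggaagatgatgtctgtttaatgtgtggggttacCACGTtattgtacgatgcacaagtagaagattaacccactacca
PDF1.3: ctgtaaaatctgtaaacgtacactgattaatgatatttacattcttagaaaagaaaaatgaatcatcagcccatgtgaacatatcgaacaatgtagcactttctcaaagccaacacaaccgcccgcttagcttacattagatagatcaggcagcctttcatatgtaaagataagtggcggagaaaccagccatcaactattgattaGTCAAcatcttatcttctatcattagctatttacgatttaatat
WRKY62: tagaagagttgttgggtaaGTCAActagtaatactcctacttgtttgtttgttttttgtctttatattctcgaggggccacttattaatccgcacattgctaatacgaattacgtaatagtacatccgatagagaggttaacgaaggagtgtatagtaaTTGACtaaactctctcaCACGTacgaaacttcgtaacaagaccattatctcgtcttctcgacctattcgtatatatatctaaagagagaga
CAB1: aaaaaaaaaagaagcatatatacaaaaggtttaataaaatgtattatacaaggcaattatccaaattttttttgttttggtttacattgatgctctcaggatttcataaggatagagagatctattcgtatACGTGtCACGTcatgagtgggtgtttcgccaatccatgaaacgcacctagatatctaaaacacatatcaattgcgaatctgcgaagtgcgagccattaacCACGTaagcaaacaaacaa
The *PDF1.2* window holds GCCGCC at -222 and ACGTG read on the other strand at -44. No GCCGCC is in the *PDF1.3* window, which has 1 TTGAC on the other strand at -44. *WRKY62* holds TTGAC at -91 and, on the other strand, at -231, and ACGTG on the other strand at -74. *CAB1* holds ACGTG 3 times, at -119 and, on the other strand, at -113 and -19. Over the promoters of 16999 tested genes, 45.0% held TTGAC on either strand. The share was 57.0% of the 2661 genes higher in *fer* and 38.5% of 1958 genes lower in *fer*. For GCCGCC the shares were 2.06%, 2.78% and 1.07%, and for ACGTG 23.6%, 29.7% and 21.1%. The evening element AAAATATCT was in 2.61%, 2.86% and 3.27%, and CATGCATG in 0.529%, 0.676% and 0.562%. Among the lists, the share with TTGAC ran from 27.9% in the photosystem list to 70.8% in the pattern-triggered immunity list. It was 47.6% in the salicylic acid list, 40% in the touch list and 50% in the XTHs. These are counts of letters in 250 bases. No binding was measured, and control by any factor was not tested.

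Pattern-triggered immunity starts at surface receptors for microbial molecules and for the plant's own danger peptides. Of 24 tested genes, 18 were higher and 2 lower (median log2 fold change 1.41). The receptor gene *FLS2*, for bacterial flagellin, had between 86.2 and 103 CPM in WT and between 78.5 and 133 in *fer* (log2 fold change 0.06, edgeR adjusted p = 0.81). Its downstream marker *FRK1* had between 1.16 and 3.50 CPM in WT and 13.0, 18.0, 83.3 and 120 in *fer* (log2 fold change 4.80, and 4.19 without *fer* replicate 4, edgeR adjusted p = 0.0085). *BIR1* (AT5G48380), for a receptor kinase that restrains cell death, rose from between 63.2 and 85.1 CPM to 142, 178, 277 and 306 (log2 fold change 1.57, SE 0.23, edgeR adjusted p = 0.00096). *LYM1* (AT1G21880), for a receptor of bacterial peptidoglycan, fell from between 43.3 and 53.7 to between 14.9 and 31.1 CPM (log2 fold change -1.01, SE 0.21, edgeR adjusted p = 0.0048), and another gene overlaps it by 842 bp on the opposite strand.

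Calcium and touch genes include calmodulin-like sensors first found as induced by touch. Of 15 tested, 10 were higher and 0 lower, and 6 were higher without WT replicate 1 or 2. *TCH3* (AT2G41100) had 203, 240, 264 and 208 CPM in WT and 990, 711, 2002 and 1834 in *fer* (log2 fold change 2.6, SE 0.32, edgeR adjusted p = 0.00074), with a gene on the opposite strand over 827 bp. *CML38* (AT1G76650) rose from between 9.65 and 17 CPM to 90.9, 56.4, 438 and 107 (log2 fold change 3.78, and 2.77 without *fer* replicate 3, edgeR adjusted p = 0.0088). Both seedling groups had been moved into liquid before harvest.

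Reactive oxygen genes were more often higher than lower. *RBOHD* (AT5G47910), the plasma membrane NADPH oxidase of the immune burst, had 3.75, 5.75, 5.65 and 2.27 CPM in WT and 26.9, 19.4, 65.2 and 48.7 in *fer* (log2 fold change 3.20, SE 0.44, edgeR adjusted p = 0.0011). *APX1* (AT1G07890), the cytosolic ascorbate peroxidase, rose from between 1045 and 1262 CPM to 1749, 1833, 3776 and 2980 (log2 fold change 1.16, SE 0.23, edgeR adjusted p = 0.0047). *TAPX* (AT1G77490), its thylakoid counterpart, fell from between 24.4 and 35.2 CPM to between 11.1 and 22.2 (log2 fold change -0.82, SE 0.21, edgeR adjusted p = 0.014), a call lost without WT replicate 2 (adjusted p = 0.055). In the list, 14 of 28 tested genes were higher and 4 lower, beside 15.7% higher and 11.5% lower over all genes. The lower ones numbered 1 without WT replicate 2 or 3 and 2 without *fer* replicate 4. AT3G03670, annotated as a peroxidase, headed the list of rises. It had 0 counts in every WT library and 349 over the *fer* libraries (7.08, 9.17, 38.0 and 36.9 CPM), at least 146-fold higher against 3 counts over the WT group (edgeR adjusted p = 0.015, and 0.051 without the filter on low counts).

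Tau and phi glutathione transferases conjugate glutathione to reactive compounds and are broadly induced by stress. Of 30 tested, 21 were higher and 0 lower (median log2 fold change 1.24), and 17 to 23 were higher with 1 library left out. *GSTF2* had 430, 352, 352 and 412 CPM in WT and 1655, 2228, 7818 and 5390 in *fer* (log2 fold change 3.47, SE 0.51, edgeR adjusted p = 0.0026). *GSTF9* (AT2G30860), the most abundant, rose from between 2229 and 2587 CPM to 3693, 3996, 6292 and 5330 (log2 fold change 1.03, SE 0.17, edgeR adjusted p = 0.0014). *GSTF9* also serves in glucosinolate synthesis.

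Phenylpropanoid genes lead from phenylalanine to lignin and other phenolics. Of 27 tested genes, 16 were higher and 1 lower (median log2 fold change 0.98). *PAL1*, the entry enzyme, had 67.3, 66.2, 54.7 and 63.7 CPM in WT and 185, 203, 764 and 740 in *fer* (log2 fold change 2.91, SE 0.53, edgeR adjusted p = 0.0065). *CCoAOMT1* (AT4G34050), a methyltransferase of lignin monomers, rose from between 493 and 575 CPM to 870, 854, 1761 and 1941 (log2 fold change 1.34, SE 0.27, edgeR adjusted p = 0.0058). The flavonoid branch did not go with it to the same count: 3 of 15 tested genes were higher and 0 lower, with 5 higher without *fer* replicate 3 and 7 with *fer* replicates 3 and 4 left out. *TT4* (AT5G13930), for chalcone synthase, had between 69.5 and 109 CPM in WT and between 50.2 and 115 in *fer* (log2 fold change -0.12, edgeR adjusted p = 0.75).

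The endoplasmic reticulum folds secreted proteins, and its chaperone genes rise when unfolded proteins build up. Of 33 tested chaperone and unfolded protein response genes, 14 were higher and 0 lower, with a median log2 fold change of only 0.47. The count was 9 without WT replicate 3 or 4, and 8 with *fer* replicates 3 and 4 left out. *ERO1* (AT1G72280), the oxidase of disulfide bond formation, rose from between 1.5 and 3.40 CPM to 9.83, 14.1, 19.7 and 18.3 (log2 fold change 2.56, SE 0.31, edgeR adjusted p = 0.00024). *BZIP60*, whose spliced product drives the response, rose from between 94.8 and 125 CPM to 167, 210, 499 and 390 (log2 fold change 1.51, SE 0.33, edgeR adjusted p = 0.0097). *BIP3*, its inducible chaperone gene, had between 1.16 and 2.81 CPM in WT, 1.97 and 2.82 in *fer* replicates 1 and 2, and 26.2 and 25.4 in replicates 3 and 4 (log2 fold change 2.83, edgeR adjusted p = 0.055, and 0.00084 with DESeq2). Heat shock genes were near the centre, with 8 higher and 1 lower of 45 tested. *HSC70-1* (AT5G02500) had between 1865 and 2203 CPM in WT and between 1732 and 1965 in *fer* (log2 fold change -0.14, edgeR adjusted p = 0.41).

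In senescence and chlorophyll breakdown, 14 of 21 tested genes were higher and 0 lower (median log2 fold change 1.04). The lower genes numbered 2 without *fer* replicate 3, and 1 without WT replicate 4 or *fer* replicate 4. *SAG21* (AT4G02380), a stress and senescence gene, rose from 809, 652, 758 and 818 CPM to 1777, 2341, 3234 and 3005 (log2 fold change 1.77, SE 0.18, edgeR adjusted p = 8.2e-05). *SAG13* (AT2G29350) had at most 0.749 CPM in WT and 7.28, 9.17, 59.3 and 21.4 in *fer* (edgeR adjusted p = 0.0050, log2 fold change 6.19, 6.81 without WT replicate 2 and 5.23 without *fer* replicate 3).

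In the circadian clock list, 0 of 18 tested genes were called in either direction, with log2 fold changes between -0.55 and 0.48. *TOC1* (AT5G61380), an evening gene of the core clock, had 74.1, 60.0, 67.0 and 68.0 CPM in WT and 69.2, 51.8, 93.4 and 105 in *fer* (log2 fold change 0.25, edgeR adjusted p = 0.38), and was called only with *fer* replicates 1 and 2 left out (adjusted p = 0.0011). At an unadjusted p under 0.05, 2 of the 18 passed in edgeR. DESeq2 called 0 of these 18 and 1 of the listed clock genes that edgeR had not tested.

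Nutrient genes were mixed. For nitrate, 6 of 20 tested genes were higher and 2 lower, and the higher ones ranged from 2 to 11 when 1 library was left out. They were 3, 2, 3 and 2 without WT replicates 1, 2, 3 and 4, 11 without *fer* replicate 2 and 3 without *fer* replicate 4. *NIA2* (AT1G37130), the main nitrate reductase gene, rose from between 309 and 381 CPM to 706, 787, 1867 and 1208 (log2 fold change 1.74, SE 0.28, edgeR adjusted p = 0.0023), and *GS2* (AT5G35630), the chloroplast glutamine synthetase, fell from between 470 and 591 to between 288 and 407 CPM (log2 fold change -0.59, SE 0.13, edgeR adjusted p = 0.0078). Phosphate starvation genes were higher in 5 and lower in 2 of 15 tested. The higher count was 3 without WT replicate 2, 2 without WT replicate 3, 2 without WT replicate 4 and 3 without *fer* replicate 4. *PHT1;1* (AT5G43350), a phosphate importer, had between 126 and 175 CPM in WT and between 126 and 158 in *fer* (log2 fold change -0.01, edgeR adjusted p = 0.96). Of 13 tested iron genes, 2 were higher and 2 lower (30.8% called, beside 27.2% over all genes). The ferritin gene *FER1* (AT5G01600), which has nothing but its symbol in common with *FER*, rose from between 51.1 and 67.3 CPM to between 123 and 179 (log2 fold change 1.38, SE 0.16, edgeR adjusted p = 0.00014), with a gene on the opposite strand over 1334 bp.

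Of the 10 largest rises among genes with a mean of at least 10 CPM in the higher group, those not yet described include *PXMT1* (AT1G66700), a methyltransferase gene with 3 counts over WT and 824 over *fer* (11, 24, 94.8 and 87.2 CPM), a ratio of 345 (exact interval for counting error 118 to 1680). *WAKL10* (AT1G79680), for a kinase of the wall-associated kinase family, had 1 count over WT and 296 over *fer* (3.93, 11.3, 37.3 and 24.5 CPM). AT1G52120, annotated as a mannose-binding lectin, had 1 count over WT and 229 over *fer*, spread evenly (13.4, 14.8, 17.6 and 12.7 CPM). *ARD3* (AT2G26400), for an enzyme of methionine salvage, rose from at most 0.665 CPM to 27.9, 36.3, 140 and 71.7 (log2 fold change 7.15, and 6.55 without *fer* replicate 3, edgeR adjusted p = 0.00062). AT1G29090, annotated as a cysteine proteinase, was the largest fall by the same rule. It had 49, 33, 71 and 100 counts in WT and 1, 0, 0 and 0 in *fer*, a ratio of 202 (exact interval for counting error 35.8 to 7990). *ADS1* (AT1G06080), for a fatty acid desaturase, fell from 142, 128, 156 and 157 CPM to 34.2, 33.5, 8.82 and 10.2 (log2 fold change -2.75, SE 0.44, edgeR adjusted p = 0.0034). *SOB5* (AT5G08150), known from a dominant line with raised cytokinin, fell from between 20.7 and 30.4 to 5.70, 7.05, 1.13 and 0.931 CPM (log2 fold change -2.81, SE 0.48, edgeR adjusted p = 0.0028).

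The 4 *fer* libraries differed among themselves, and in most called genes replicates 3 and 4 lay farther from WT than replicates 1 and 2. This split was first seen on the principal component of these same genes. The counts below therefore describe the split and do not test it. Of the 2661 genes higher in *fer*, 1896 (71.3%) had replicates 3 and 4 both above replicates 1 and 2, and 136 (5.11%) had both below. Of the 1959 lower genes, 1143 (58.3%) had both below and 49 (2.5%) both above. Among the 12381 genes not called, 21.0% had both above and 26.9% both below. Summed over lists, salicylic acid genes stood at 3.38, 3.57, 6.32 and 5.83 times the WT mean in *fer* replicates 1 to 4, WRKY genes at 2.15, 2.1, 5.33 and 4.33, and phenylpropanoid genes at 1.69, 1.68, 3.88 and 3.96. Photosystem genes stood at 0.730, 0.656, 0.395 and 0.495, and aquaporins at 0.635, 0.640, 0.390 and 0.370. Replicates 1 and 2 lay beyond the WT libraries in the same direction in each of these lists. The jasmonate list sum, *LOX2* and *VSP2* had the other order, given above, whereas *TAT3* was highest in replicates 3 and 4, and *PDF1.3*, *EXPA10* and *GH3.3* showed no such order. With *fer* replicates 3 and 4 left out, the median log2 fold change was 1.94 for the salicylic acid list, 2.17 for the jasmonate list, -0.87 for the XTHs and -0.44 for the photosystem list. Under the same setting 15 salicylic acid, 16 jasmonate, 14 pattern-triggered immunity, 20 glutathione transferase, 15 phenylpropanoid and 10 senescence genes were higher, and 12 XTHs, 23 arabinogalactan protein and extensin genes, 24 photosystem and 13 Rubisco and Calvin cycle genes were lower. Also, 3 senescence genes were lower and 1 photosystem gene was higher under this setting, beside 0 of each with all libraries. The lower genes numbered 6 for cellulose synthesis, 6 for gibberellin, 10 for aquaporins, 9 for chlorophyll synthesis, 5 for FER's family and partners, 6 for cytokinin and 0 for root hairs. The higher genes numbered 8 in the touch, 8 in the heat shock, 12 in the reactive oxygen, 5 in the pectin, 4 in the nitrate and 3 in the phosphate list. Higher and lower genes numbered 2 and 4 for alpha-expansins, 5 and 4 for ethylene, 3 and 3 for ABA, 6 and 5 for dehydration and cold, 4 and 4 for brassinosteroid, 2 and 2 for Aux/IAA, 0 and 3 for SAUR, 7 and 4 for auxin synthesis and transport, 1 and 2 for iron and 0 and 1 for the clock. No label sets replicates 3 and 4 apart, and what they share was not tested.

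**Figure D4:**
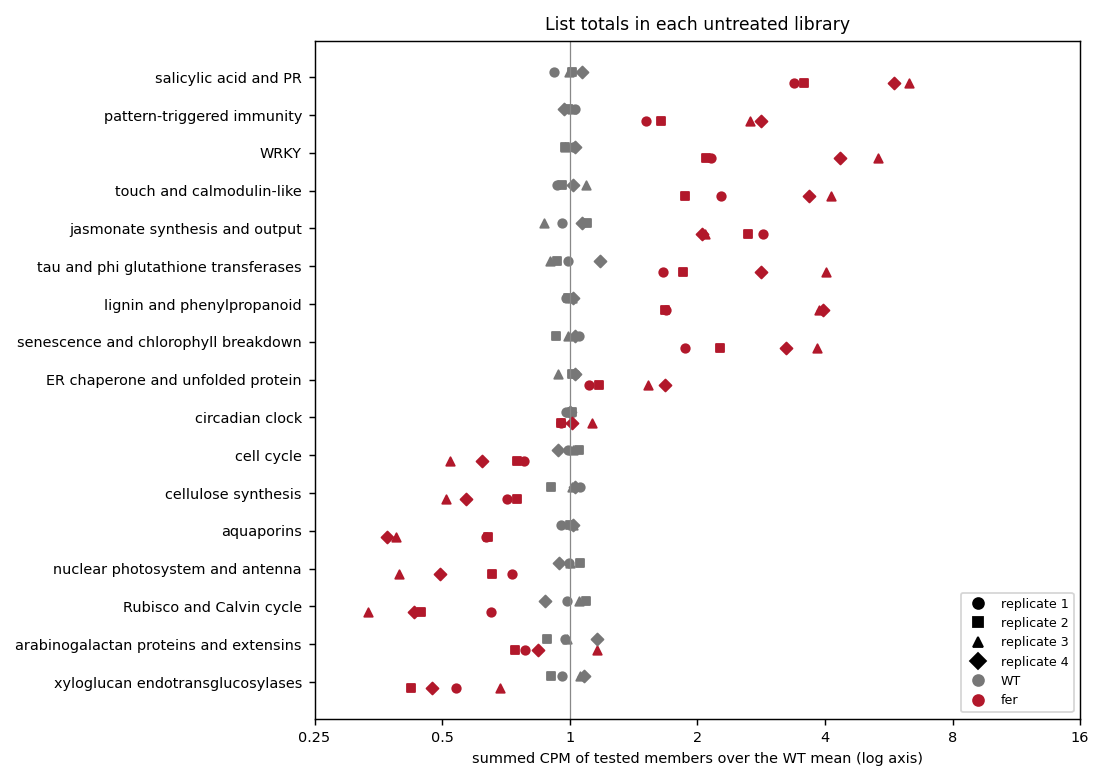
For 17 lists, the summed CPM of the tested members in each library is drawn over the mean of the 4 WT libraries (log axis), WT in grey and *fer* in red, with a symbol for each replicate number. In *fer*, replicates 3 and 4 lie farther from WT than replicates 1 and 2 for salicylic acid (6.32 and 5.83 beside 3.38 and 3.57) and photosystem genes, but not for jasmonate genes (2.09 and 2.05 beside 2.85 and 2.64).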

How the data were processed

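Total RNA of whole seedlings was sequenced as QuantSeq 3′ libraries. The authors aligned the reads with STAR, counted them with HTSeq on TAIR10 and deposited raw counts per gene, unnormalized. The strand option of the counting is not given in the sources used here. From these counts, edgeR 4.0.16 (R 4.3.3, limma 3.58.1) was fitted to the 8 untreated libraries with TMM scaling, filterByExpr and the robust quasi-likelihood F test, without a block, and p-values were adjusted by Benjamini-Hochberg over all 17001 genes, with a threshold of 0.05. Standard errors were taken as the size of the log2 fold change over the square root of F. Totals ran from 2843653 to 5985875 counts, and exact intervals and the floor of 3 counts cover counting error only.

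Genes named were *FER*, the 10 largest rises and falls with a mean of at least 10 CPM in the higher group and no overlap, outside the ER body, glucosinolate and JAZ lists, and in each list the largest rise, the largest fall and the most abundant member. Another 27 members were added after their values were seen. Not every gene that this rule names is reported here. Members and lists were chosen with earlier results of these data known. Names, overlaps and promoters came from TAIR10.1 of RefSeq, which matched 32548 of the 32833 genes. In a test on simulated data for this comparison (17060 genes), 144 of 200 changed genes were recovered (72.0%), with 6.49% of calls false. DESeq2 recovered 156 of them, with 13.3% of its calls false. The simulated libraries were drawn independently, with only 200 genes changed and without the shared split of *fer* replicates 3 and 4. These rates therefore need not hold for the real libraries. Alternatives were RLE scaling, library size alone, no filter, DESeq2 1.42.0, a replicate block and each library left out, and, chosen after seeing the data, *fer* replicates 3 and 4 or 1 and 2 left out.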

Additional observations from a re-analysis of the deposited data

Results flagged for a closer look

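In 20 of 364 checks of a gene or a list sum in 4 libraries of 1 genotype, the highest or lowest library lay apart from the other 3 by Dixon's criterion, and chance flags about 1 in 20 groups. All values are CPM. Among WT libraries at hardly any counts, *WAKL10* had 0.25 in replicate 2, AT3G28510 had 0.378 and AT1G52120 0.189 in replicate 4, and AT4G10500 had 0.4997 in replicate 2. *PDF1.2* had 0.832 in WT replicate 3 (others at most 0.25). WT replicate 3 also stood apart for *EXPA1* at 222.2, AT2G45220 at 2.494, *RHS12* at 15.96 and *PAD4* at 3.492. AT5G14920 had 826.7 in WT replicate 2 (others from 897.2) and *TAT3* 2.813 in WT replicate 1 (others at most 1.497). The reactive oxygen list summed to 5321 in WT replicate 4 (others at most 4987).

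In *fer*, replicate 1 stood apart for AT1G29090 at 0.197, *RBCS3B* at 2835 (others at most 1381) and *XTH17* at 8.26 (others at most 3.526). Replicate 2 stood apart for *PDF1.2* at 33.85 and *RHS13* at 37.37. Replicate 3 was highest for *CML38* at 437.5 (others at most 107.0) and lowest for *F3H* at 33.03 (others from 48.65). *EDS16* had 125.6 in replicate 4 (others at most 56.41).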

How the results depend on the processing

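The number of genes that differed (4620) was 4610 with RLE scaling, 4633 with library size alone, 4635 with no filter on low counts and 5121 with DESeq2. It ranged from 3157 to 5466 when 1 library was left out, with 1989 to 3153 genes higher and 1110 to 2396 lower, and from 318 to 487 of the list members (431). With *fer* replicates 1 and 2 left out, 7836 genes differed, 4284 higher and 3552 lower. Replicate numbers did not pair the libraries (correlations of same-numbered deviations between -0.0458 and 0.00246), and with a replicate block 4122 genes differed. Without *fer* replicates 3 and 4 the medians of the Aux/IAA (0.021), SAUR (0.077), ethylene (-0.034), heat shock (-0.040) and clock (-0.055) lists had the other sign, all near 0. Of 140 named genes, between 122 and 134 stayed on their side of the threshold when 1 library was left out. Genes at 0 to 3 counts in a group are limited by depth.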
